A study of Homo sapiens with 6 samples.

Results

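The genes described here are the nuclear genes of the last steps of the mitochondrial respiratory chain: complex III, its electron carrier cytochrome c, complex IV and the ATP synthase. They were chosen by symbol (UQCR, COX4 to COX8 or ATP5 at the start, or CYC1 or CYCS), leaving out pseudogene symbols and rows that averaged under 1 TPM. The rule took 40 of the 35473 gene rows: 9 for complex III, 1 for cytochrome c, 12 for complex IV and 18 for the ATP synthase. Of the other rows with such symbols, 8 averaged under 1 TPM and 92 carried a pseudogene symbol. The table spells some genes with older symbols, which are kept here, so that ATP5D is the gene now called ATP5F1D and ATP5G1 the one now called ATP5MC1.

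Messenger RNA was sequenced from IMR32, a cell line from a human neuroblastoma, a tumour of the sympathetic nervous system. The tested cells had 24 h of 5 µM CBR-470-1, and the control cells had the DMSO vehicle alone in equal volume for the same time, with 3 independent biological replicates in each group. Both groups are the same unmodified line in serum-containing medium, so the values describe 1 tumour cell line and not normal neurons. TPM is the length-scaled share of a gene's transcripts in its library, so genes can be compared within a library and a value falls when other genes take a larger share. It also cannot separate fewer cells making a transcript from less transcript per cell. Sequencing depth is not recorded in TPM and is unknown. All 9 neuroblastoma markers examined, DBH among them, averaged over 1 TPM. They summed to 2744 to 2792 TPM in CBR-470-1 libraries and 2841 to 3097 TPM in DMSO libraries, and 2 of the 9, DBH and CHGA, were called lower in the test described below; the part of this shift in the results was not tested. Of 10 markers of blood, epithelial, endothelial and fibroblast cells, only COL1A1 averaged over 1 TPM, and CD3E and HBB were listed at 0; the 10 summed to 3.95 to 5.65 TPM in CBR-470-1 libraries and 3.80 to 4.11 TPM in DMSO libraries. The quinone reductase gene NQO1, a standard target of the transcription factor NRF2 that the series title names, read 61.4, 66.55 and 70.6 TPM with CBR-470-1 and 3.74, 4.93 and 5.31 TPM with DMSO. Every treated library lay far above every DMSO library (log2 fold change 3.58, SE 0.115, limma adjusted p = 2.67e-05).

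Complex III passes electrons from ubiquinol to cytochrome c, and complex IV hands them from cytochrome c to oxygen; both pump protons across the inner mitochondrial membrane. The ATP synthase lets the protons back through a rotating ring and uses that rotation to make ATP in its F1 head. Mitochondrial DNA encodes cytochrome b of complex III, the catalytic subunits of complex IV and a pair of ATP synthase subunits; every other subunit comes from nuclear genes such as these, is made in the cytosol and is imported. The series title presents CBR-470-1 as a modulator of glycolysis, the pathway that makes ATP without these complexes.

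Most of these transcripts lay close to their DMSO level in CBR-470-1 libraries, and 2 passed the test, both lower. COX8A of complex IV fell by 22.5% and ATP5D of the ATP synthase fell by 27.1%. In limma across all 13470 tested rows, with Benjamini-Hochberg adjustment, 2 of the 40 genes were called lower and 0 higher at an adjusted p under 0.05; over all tested rows 0.839% were called lower and 1.13% higher, 1.97% in all. Without adjustment, 11 of the 40 had p under 0.05, all of them lower, against 9.65% of all rows that were lower at that level. Of the 40, 13 had every treated library below every DMSO library and 1 had the reverse, against 12.5% and 17.7% of all tested rows. Most of these genes are abundant, and among the 1649 rows averaging 100 TPM or more, a comparison chosen after seeing the data, 23.4% were separated on the lower side. Of those 1649 rows, 48 were called lower and 36 higher, and 326 were lower with an unadjusted p under 0.05. The median log2 fold change was -0.05 for the 40 genes and 0.03 for all tested rows.

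**Figure D1:**
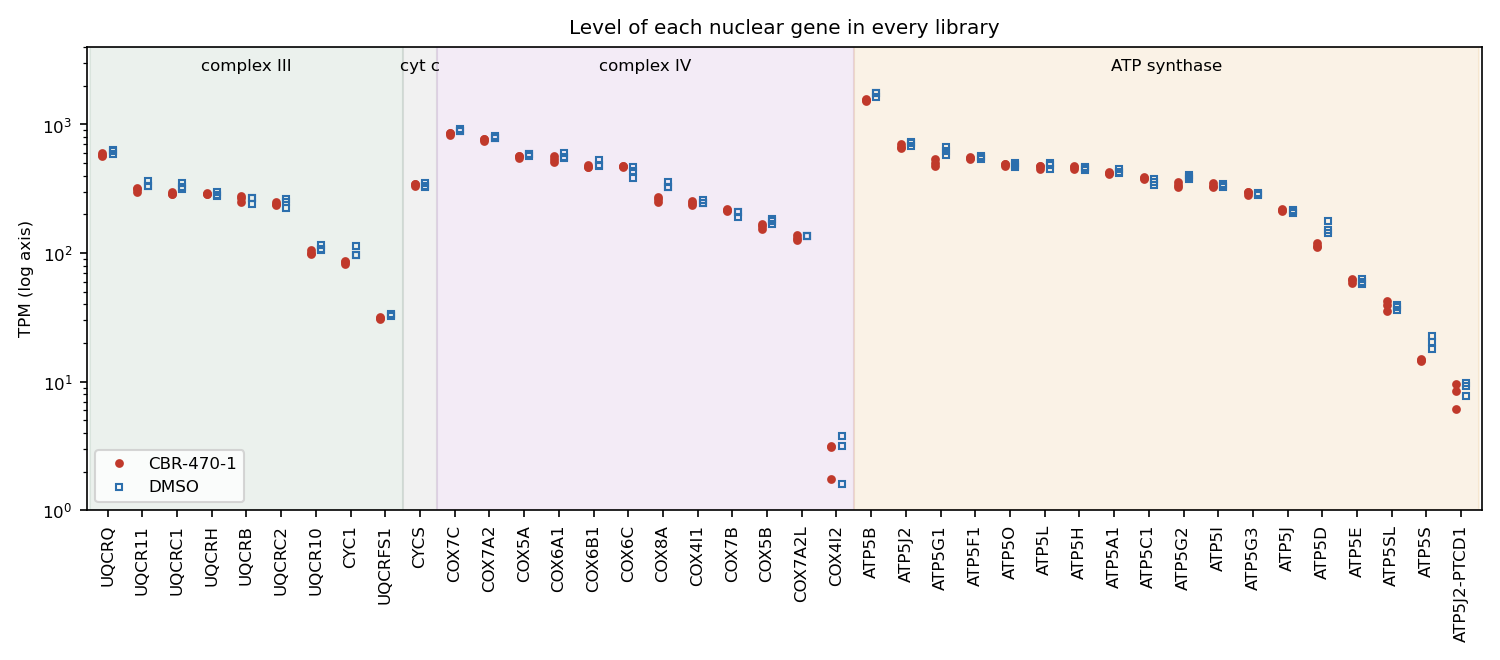
TPM of each of the 40 genes (log axis) in every CBR-470-1 library (filled circles) and DMSO library (open squares), ordered within each complex by mean level. ATP5B is the highest at 1552 TPM with CBR-470-1 and 1713 TPM with DMSO, and COX4I2 the lowest at 2.68 and 2.85 TPM.

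Added over genes, the transcripts of each complex took a slightly smaller share of the treated libraries. The complex III genes summed to 2211, 2193 and 2202 TPM with CBR-470-1 and to 2329, 2327 and 2320 TPM with DMSO, a difference of -5.30%. The sums were 4761, 4595 and 4658 TPM with CBR-470-1 against 4879, 4824 and 4924 TPM with DMSO for complex IV (-4.18%). For the ATP synthase they were 7013, 6863 and 6903 TPM with CBR-470-1 against 7347, 7268 and 7364 TPM with DMSO (-5.46%). In each complex all treated sums lay below all DMSO sums. A few genes made up most of these differences: ATP5B, ATP5G1, ATP5G2 and ATP5D differed by -162, -119, -51.2 and -42.8 TPM, within -400 TPM for the whole synthase, and COX8A and COX7C by -75.5 and -55.0 TPM within -204 TPM for complex IV. The median log2 fold changes were -0.08, -0.05 and -0.02 for complex III, complex IV and the ATP synthase. No p is given for a sum or a median, since the genes were chosen with earlier results of these data known.

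**Figure D2:**
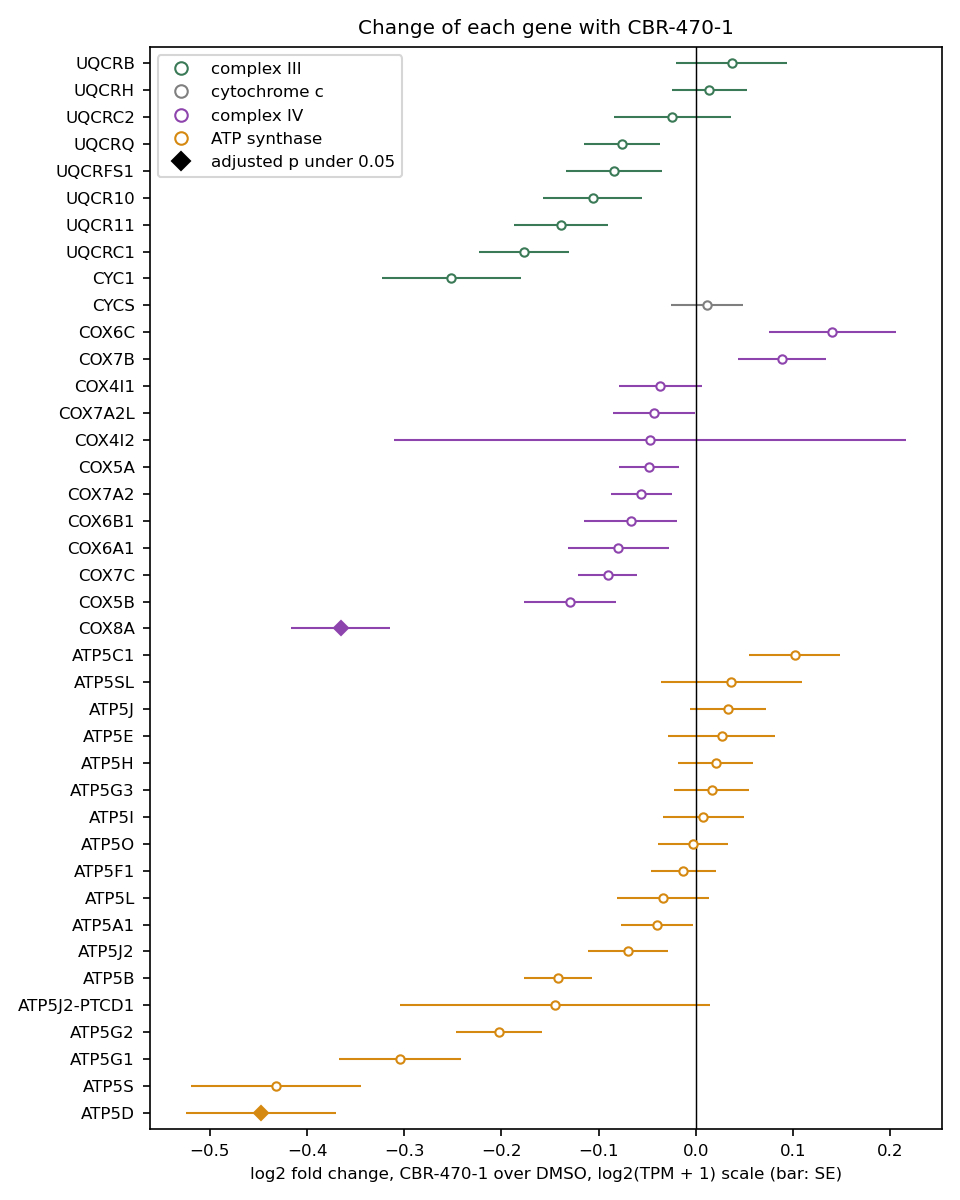
Log2 fold change of each gene, CBR-470-1 over DMSO, on the log2(TPM + 1) scale with its standard error, ordered within each complex (colours). Filled diamonds mark the 2 genes with an adjusted p under 0.05, COX8A at -0.37 and ATP5D at -0.45; the remaining 38 lie between -0.43 and 0.14.

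In complex III, no gene was called in limma (0 of 9, with 3 at an unadjusted p under 0.05, all lower). CYC1 and UQCRC1 had its largest differences. CYC1, cytochrome c1, read 85.8, 82.0 and 87.5 TPM with CBR-470-1 against 96.4, 95.85 and 113.1 TPM with DMSO, so its groups did not overlap. Its log2 fold change was -0.25 (SE 0.0713, limma adjusted p = 0.102). UQCRC1, core protein 1, read 286.0, 300.3 and 289.0 TPM with CBR-470-1 against 326.3, 314.9 and 349.3 TPM with DMSO, again without overlap (log2 fold change -0.18, SE 0.0467, limma adjusted p = 0.0886). UQCRC2, its partner core protein, averaged 243 ± 6.26 TPM with CBR-470-1 and 247 ± 19.5 TPM with DMSO (SD, n = 3 each), and its groups overlapped.

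Among the small subunits of complex III, UQCR11 read 318, 297 and 312.5 TPM with CBR-470-1 against 330.3, 331 and 361 TPM with DMSO, with no overlap (log2 fold change -0.14, SE 0.0480, limma adjusted p = 0.145). UQCR10 read 106, 98.65 and 101 TPM with CBR-470-1 against 108, 115 and 106 TPM with DMSO, and the groups overlapped (log2 fold change -0.11, SE 0.0510, limma adjusted p = 0.260). UQCRFS1 encodes the Rieske iron-sulfur protein, which takes the first electron from ubiquinol, and was the scarcest of the complex. It read 30.6, 31.7 and 31.3 TPM with CBR-470-1 against 33.4, 33.3 and 32.6 TPM with DMSO. Those groups did not overlap, but the difference of -5.82% did not pass (limma adjusted p = 0.344). UQCRQ, the most abundant at 585 ± 18.4 TPM with CBR-470-1 and 617 ± 21.65 TPM with DMSO, the hinge protein gene UQCRH and UQCRB had log2 fold changes of -0.08, 0.01 and 0.04 with overlapping groups. CYCS encodes cytochrome c, which also triggers apoptosis when it leaves the mitochondria. It read 334, 342.5 and 342 TPM with CBR-470-1 against 349, 334 and 328 TPM with DMSO, overlapping throughout (log2 fold change 0.01, SE 0.0367, limma adjusted p = 0.875).

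Complex IV held 1 called gene among 12. COX8A encodes subunit 8, a single-helix membrane subunit, in the form found in most tissues; its gene model (ENSG00000176340.3) spans chr11:63974607-63976543 on GRCh38 in GENCODE 29. It read 272, 248 and 262.5 TPM in CBR-470-1 libraries against 328, 325 and 356 TPM in DMSO libraries, so each treated library lay below each DMSO library. Its log2 fold change was -0.37 (SE 0.0512, limma adjusted p = 0.0244). The direction held whichever library was left out, but with 5 libraries the adjusted p ran from 0.0510, without DMSO replicate 3, to 0.108, without CBR-470-1 replicate 3, so the call was lost each time.

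Of the other genes of complex IV, COX7C, COX7A2 and COX5B also had no overlap on the lower side. COX7C, the most abundant, read 857.5, 852 and 828 TPM with CBR-470-1 against 923, 891 and 888 TPM with DMSO (log2 fold change -0.09, limma adjusted p = 0.136), and COX7A2 averaged 763 ± 15.5 TPM with CBR-470-1 and 793 ± 17.95 TPM with DMSO (SD, n = 3 each). COX5B, a zinc-binding subunit, read 162, 155 and 167 TPM with CBR-470-1 against 169, 177.5 and 183.5 TPM with DMSO (log2 fold change -0.13, SE 0.0473, limma adjusted p = 0.160). On the other side, COX7B averaged 216.5 ± 3.13 TPM with CBR-470-1 and 204 ± 9.92 TPM with DMSO (SD, n = 3 each), the only gene of the 40 with no overlap on the higher side; its log2 fold change was 0.09 (SE 0.0450, limma adjusted p = 0.282). COX6C had a log2 fold change of 0.14 (SE 0.0651, limma adjusted p = 0.246), the largest positive value of the 40 with all libraries; without DMSO replicate 3 it was 0.07, below COX4I2 at 0.13. It read 466.2, 473 and 474 TPM with CBR-470-1 against 466.5, 433 and 386 TPM with DMSO. DMSO replicate 3 was the lowest, and DMSO replicate 1 lay within the treated range. COX5A, COX6A1, COX6B1 and COX7A2L, which encodes a factor that joins complexes III and IV into supercomplexes, had log2 fold changes from -0.08 to -0.04, with overlapping groups.

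Where complex IV has paralogs for different tissues, 1 form carried nearly all of the signal. COX4I1, the general form of subunit 4, averaged 244 ± 8.80 TPM with CBR-470-1 and 250 ± 7.84 TPM with DMSO. COX4I2, known as the form of lung and of low oxygen, read 3.12, 1.745 and 3.16 TPM with CBR-470-1 against 3.17, 1.596 and 3.80 TPM with DMSO. COX6A1 averaged 540 ± 27.4 TPM with CBR-470-1 and 570.5 ± 30.1 TPM with DMSO, and COX6B1 averaged 471.5 ± 11.6 TPM with CBR-470-1 and 494 ± 29.8 TPM with DMSO (SD, n = 3 each). The muscle forms COX6A2 and COX7A1 and the testis form COX7B2 were listed at 0 in all 6 libraries. COX6B2 and COX8C, also known from testis, averaged 0.495 and 0.524 TPM with CBR-470-1 and 1.00 and 0.540 TPM with DMSO, as values too low to test. In complex III, UQCRH averaged 289.8 ± 2.98 TPM with CBR-470-1 and 287 ± 10.6 TPM with DMSO, and its copy UQCRHL averaged 0.188 TPM with CBR-470-1 and 0.227 TPM with DMSO. Of the ATP synthase symbols under 1 TPM, ATP5J2LP was listed at 0 in all libraries and ATP5L2 averaged 0.0295 TPM with CBR-470-1 and 0.142 TPM with DMSO.

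The ATP synthase held the other called gene and the widest range of changes. ATP5D encodes the delta subunit of the central stalk, which joins the rotating ring to the F1 head; its gene model (ENSG00000099624.7) spans chr19:1241746-1244826 on GRCh38 in GENCODE 29. It read 119, 112 and 114 TPM in CBR-470-1 libraries against 144.5, 151 and 178 TPM in DMSO libraries. All treated libraries were lower, and DMSO replicate 3 was the highest of all. Its log2 fold change was -0.45 (SE 0.0771, limma adjusted p = 0.0414), and it was -0.36 without DMSO replicate 3 (limma adjusted p = 0.0453). Leaving out any of the other 5 libraries ended the call, with limma adjusted p from 0.0597 to 0.137 and no change of direction.

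No other gene of the F1 head and central stalk was called. ATP5B, the catalytic beta subunit, read 1569, 1531 and 1555 TPM with CBR-470-1 against 1745, 1632 and 1764 TPM with DMSO, without overlap (log2 fold change -0.14, SE 0.0349, limma adjusted p = 0.0781). ATP5A1, the alpha subunit that alternates with beta in the head, averaged 418 ± 7.84 TPM with CBR-470-1 and 430 ± 14.9 TPM with DMSO (SD, n = 3 each), with overlap. ATP5C1, the gamma subunit that turns inside the head, averaged 383 ± 8.79 TPM with CBR-470-1 and 357 ± 19.6 TPM with DMSO; its log2 fold change of 0.10 did not pass (limma adjusted p = 0.240). ATP5E, the epsilon subunit bound beside delta in the stalk, had the lowest level of the F1 genes, 61.2 ± 2.05 TPM with CBR-470-1 and 60.1 ± 2.99 TPM with DMSO. The difference between ATP5D and its neighbours was not tested.

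**Figure D3:**
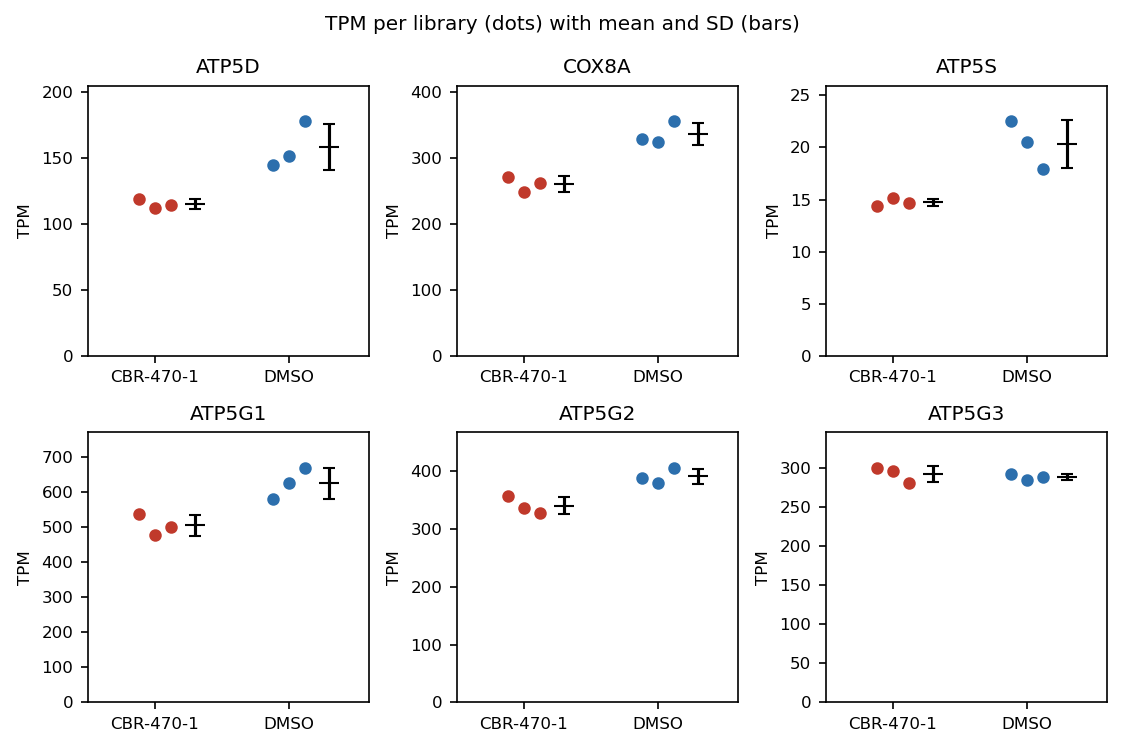
TPM of 6 ATP synthase and complex IV genes in each library (dots), CBR-470-1 left and DMSO right, with group mean and SD (bars); axes start at 0. The groups are apart for ATP5D, COX8A, ATP5S, ATP5G1 and ATP5G2, and overlap for ATP5G3.

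The c ring is built from a single mature protein that 3 genes encode with different import sequences, so the trio shows which of them supplies the transcripts. ATP5G1 read 539, 479 and 500.1 TPM with CBR-470-1 against 580.1, 626 and 670.3 TPM with DMSO (log2 fold change -0.30, SE 0.0632, limma adjusted p = 0.0603). ATP5G2 read 356, 336 and 327 TPM with CBR-470-1 against 387, 379 and 405 TPM with DMSO (log2 fold change -0.20, SE 0.0443, limma adjusted p = 0.0651). For both, every treated library lay below every DMSO library, and neither passed. ATP5G3 read 301, 296.5 and 281 TPM with CBR-470-1 against 293, 285 and 290 TPM with DMSO, with overlap (log2 fold change 0.02, SE 0.0386, limma adjusted p = 0.826). ATP5G1 thus made up 44.4% ± 1.154 of the c subunit transcripts with CBR-470-1 and 47.9% ± 1.63 with DMSO, and ATP5G3 25.7% ± 0.818 with CBR-470-1 and 22.2% ± 1.02 with DMSO (SD, n = 3 each). The ratio of ATP5G1 to ATP5G3 was 1.79, 1.62 and 1.78 with CBR-470-1 against 1.98, 2.19 and 2.31 with DMSO. It does not depend on how a library is scaled, but a trend with GC content and length, described below, does not cancel in it. With that trend removed, ATP5G1 stood at -0.29 and ATP5G3 at -0.06, and the part of the trend in the ratio was not tested. An exact permutation test of 3 against 3 cannot give a two-sided p under 0.1, and no other test of the ATP5G1 to ATP5G3 ratio was run.

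The peripheral stalk holds the head still. Its 4 genes, ATP5F1 (subunit b), ATP5H (subunit d), ATP5J (factor 6) and ATP5O (the oligomycin sensitivity protein), summed to 1715 ± 30.9 TPM with CBR-470-1 and 1710.0 ± 46.6 TPM with DMSO, and their log2 fold changes ran from -0.01 to 0.03. Among the small membrane subunits, ATP5I (e), ATP5J2 (f) and ATP5L (g) had log2 fold changes of 0.01, -0.07 and -0.03 with overlapping groups. The remaining 3 symbols are not synthase subunits. ATP5S, which encodes coupling factor B, read 14.4, 15.1 and 14.7 TPM with CBR-470-1 against 22.5, 20.5 and 17.9 TPM with DMSO, with no overlap (log2 fold change -0.43, SE 0.0876, limma adjusted p = 0.0592). ATP5SL, known for a role in complex I assembly, averaged 39.2 ± 3.27 TPM with CBR-470-1 and 38.1 ± 1.63 TPM with DMSO. ATP5J2-PTCD1 is a read-through of ATP5J2 into its neighbour, at 8.06 ± 1.78 TPM with CBR-470-1 and 8.92 ± 1.11 TPM with DMSO; it shares exons with ATP5J2, so how reads were divided between them is uncertain.

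Genes with a higher GC content tended to have lower values with CBR-470-1, among these genes and in the table at large. Across the 40 genes, which share the same 6 libraries and are not independent, the log2 fold change and the GC content of the longest transcript had Pearson r = -0.45 and Spearman rho = -0.45; across 13463 tested rows r was -0.27. How far this trend enters each value was not tested beyond the correction given below. The 9 genes with at least 55% GC had a median of -0.14 (all rows, -0.06), the 15 from 45% to 55% a median of -0.08 (all rows, 0.02), and the 16 under 45% a median of 0.00 (all rows, 0.09). Libraries carried the trend unequally: among the 40 genes, deviation from the gene's mean had r = 0.65 with GC content in DMSO replicate 3 and r = -0.55 in CBR-470-1 replicate 2. ATP5D has 63.9% GC and COX8A 58.6%. With a spline trend on GC content and length removed from every library, ATP5D stood at -0.33 (limma adjusted p = 0.0166), COX8A at -0.28 (limma adjusted p = 0.0126) and ATP5S, with 40.4% GC, at -0.53 (limma adjusted p = 0.0170). These were then the 3 called genes of the 40, all lower, against 1.02% of all rows called lower and 2.57% called in either direction. CYC1 at 64.5% GC moved to -0.14 and UQCRC1 to -0.09 (limma adjusted p = 0.124 and 0.265).

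**Figure D4:**
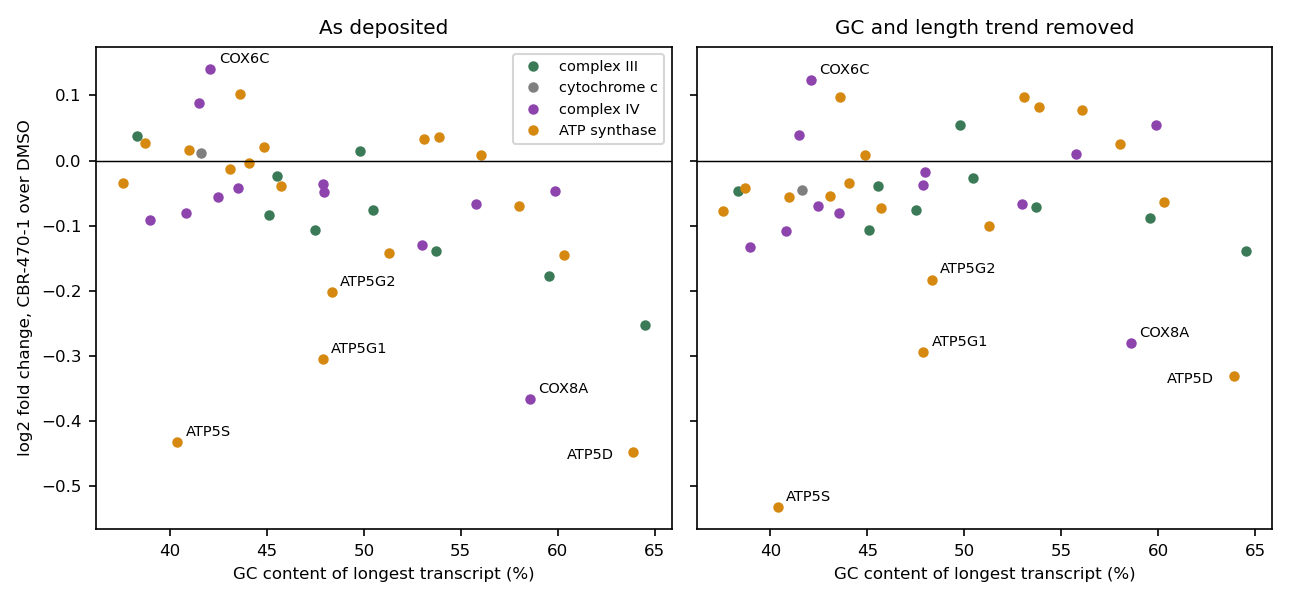
Log2 fold change of each gene, CBR-470-1 over DMSO, against the GC content of its longest transcript, with the values as deposited (left) and with the GC and length trend removed (right). Pearson r over the 40 genes was -0.45 on the left and -0.02 on the right; ATP5D, ATP5S, COX8A and ATP5G1 are the 4 lowest genes in both panels.

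The promoters of COX8A, ATP5G1, ATP5G2, UQCRC1 and UQCR11 are shown. These 5 were picked from the genes with an entry and had log2 fold changes from -0.37 to -0.14. ATP5D, ATP5S, CYC1, ATP5J2-PTCD1 and ATP5B had lower values than UQCR11 and are not shown. The sequences are from RefSeq on GRCh38.p14 and run from 250 bases before the start site to 50 after. They lie at chr11:63974370-63974669 (plus strand), chr17:48892537-48892836 (plus strand), chr12:53676034-53676333 (minus strand), chr3:48609597-48609896 (minus strand) and chr19:1605413-1605712 (minus strand). Capitals mark matches, on either strand, to a core of nuclear respiratory factor 1 (GCGCANGCG, in 8.05% of 27305 such windows), of ETS factors, which include GABPA (CCGGAAGT, 4.44%), of YY1 (AAGATGGC, 3.03%) or of the antioxidant response element that NRF2 binds (TGACNNNGC, 13.6%). COX8A holds 1 ETS match and ATP5G2 1 respiratory factor match. UQCRC1 holds 4 matches, 1 to the response element, then a pair to the respiratory factor and 1 to YY1. UQCR11 also holds 4, 1 to ETS factors, then a pair to the respiratory factor and 1 to the response element. None of these motifs is in the ATP5G1 window, and no matches overlap. A match is only a string of letters, and no count over the genes is given because 30 of the 40 had an entry.
COX8A: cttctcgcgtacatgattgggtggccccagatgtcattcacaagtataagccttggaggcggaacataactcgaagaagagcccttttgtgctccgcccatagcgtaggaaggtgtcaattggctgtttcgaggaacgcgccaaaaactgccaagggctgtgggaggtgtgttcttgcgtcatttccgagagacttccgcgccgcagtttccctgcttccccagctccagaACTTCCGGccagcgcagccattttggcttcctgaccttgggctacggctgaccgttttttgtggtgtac
ATP5G1: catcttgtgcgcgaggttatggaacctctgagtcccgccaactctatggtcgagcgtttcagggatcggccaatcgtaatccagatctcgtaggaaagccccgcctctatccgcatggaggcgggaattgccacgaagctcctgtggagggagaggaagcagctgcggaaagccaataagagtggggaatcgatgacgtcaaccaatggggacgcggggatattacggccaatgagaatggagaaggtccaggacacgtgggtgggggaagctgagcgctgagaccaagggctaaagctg
ATP5G2: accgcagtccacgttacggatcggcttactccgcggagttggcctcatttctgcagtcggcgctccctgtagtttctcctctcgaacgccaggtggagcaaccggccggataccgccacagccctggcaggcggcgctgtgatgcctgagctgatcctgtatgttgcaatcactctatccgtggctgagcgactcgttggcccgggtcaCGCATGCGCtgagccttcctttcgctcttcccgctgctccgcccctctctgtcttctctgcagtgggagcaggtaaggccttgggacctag
UQCRC1: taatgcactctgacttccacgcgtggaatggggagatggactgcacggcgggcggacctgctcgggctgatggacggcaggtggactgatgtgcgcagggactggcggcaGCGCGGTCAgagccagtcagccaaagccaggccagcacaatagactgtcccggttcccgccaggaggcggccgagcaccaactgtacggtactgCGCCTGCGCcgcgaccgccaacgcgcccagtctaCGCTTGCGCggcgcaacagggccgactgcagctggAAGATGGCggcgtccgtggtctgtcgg
UQCR11: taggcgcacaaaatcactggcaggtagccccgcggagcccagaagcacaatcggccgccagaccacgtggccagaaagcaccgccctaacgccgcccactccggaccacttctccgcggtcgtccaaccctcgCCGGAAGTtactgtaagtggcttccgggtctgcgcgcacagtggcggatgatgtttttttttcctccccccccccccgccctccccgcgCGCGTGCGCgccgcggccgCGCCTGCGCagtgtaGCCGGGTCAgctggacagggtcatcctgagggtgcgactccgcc

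The remaining genes of the respiratory chain, their assembly factors and regulators were tested in the same fit. Over 8 lists with 101 tested rows, limma called 1 lower and 0 higher (30 had an unadjusted p under 0.05, 20 of them lower), and over all tested rows 23.5% had such a p, 9.65% lower and 13.8% higher. The median log2 fold change over the lists was -0.02. The called gene was NDUFV1, the flavin subunit of complex I that takes electrons from NADH, at 225 ± 3.62 TPM with CBR-470-1 and 264 ± 9.29 TPM with DMSO (SD, n = 3 each; log2 fold change -0.23, limma adjusted p = 0.0405). That call was lost whenever 1 library was left out. It was 1 of 41 tested complex I rows, which had a median of -0.04 and include antisense and read-through rows. Of these 41, 31 had a negative log2 fold change. An unadjusted p under 0.05 was found for 15, 13 lower and 2 higher, against 9.65% lower and 13.8% higher of all rows. NDUFA4L2, taken into these rows by its symbol, had their largest change, -0.44 (limma adjusted p = 0.301). It averaged 1.497 TPM with CBR-470-1 and 2.35 TPM with DMSO. NDUFA4, whose name it shares, is now placed in complex IV. NDUFS7 had the next largest change, -0.30 (limma adjusted p = 0.118). Of 26 complex IV assembly genes 0 were called and 8 had an unadjusted p under 0.05, 3 lower and 5 higher, against 23.5% of all rows in either direction. PET100 had the largest change, -0.29 (limma adjusted p = 0.0872). Of 6 complex III assembly genes 0 were called (1 at an unadjusted p under 0.05), with UQCC3 at -0.15, and of 5 ATP synthase assembly genes 0 (1 at that level), with ATPAF2 at -0.18. Complex II had 0 called of 4 (1 at that level), with SDHA at -0.16.

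Subunits whose symbols lie outside the rule did not pass either: of 4, 0 were called and 0 had an unadjusted p under 0.05. NDUFA4, now placed in complex IV, averaged 615 ± 15.2 TPM with CBR-470-1 and 582.5 ± 20.4 TPM with DMSO (SD, n = 3 each). ATPIF1, the inhibitor of the synthase, averaged 145 ± 8.28 TPM with CBR-470-1 and 151 ± 6.80 TPM with DMSO. Of the 6 mitochondrially encoded subunits of these complexes, 0 were called in limma and 1 had an unadjusted p under 0.05. That was MT-CO1, the catalytic subunit of complex IV, at 3738 ± 296 TPM with CBR-470-1 and 3377 ± 42.3 TPM with DMSO (log2 fold change 0.14, limma adjusted p = 0.169). The 6 together spanned 17170.0 to 20360.0 TPM with CBR-470-1 and 18900.0 to 19950.0 TPM with DMSO, so the treated libraries spread wider and the groups overlapped. Among 9 regulators of nuclear respiratory genes, 0 were called and 3 had an unadjusted p under 0.05, 1 lower and 2 higher, against the same 23.5% of all rows. The coactivator gene PPARGC1A had the largest difference, 2.07 ± 0.526 TPM with CBR-470-1 and 3.52 ± 0.909 TPM with DMSO (log2 fold change -0.55, SE 0.184, limma adjusted p = 0.136). NRF1, the respiratory factor itself, averaged 12.6 ± 0.477 TPM with CBR-470-1 and 13.9 ± 0.781 TPM with DMSO, a log2 difference of -0.13 (limma adjusted p = 0.298). The 2 higher genes were YY1 and PPRC1, both at 0.13 (limma adjusted p = 0.184 and 0.148). Of the 9 regulators, 4 had a negative and 5 a positive log2 fold change, with a median of 0.13.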

How the data were processed

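Per the labels' protocols, libraries came from polyA RNA with the NEBNext Ultra kit. The authors deposited TPM values, a row per gene symbol. The submitters' processing notes name bcl2fastq, Salmon 0.7.2 and GRCh38. Annotation, strand use and summing to genes: not given in the sources used here. TPM keeps no depth, so no counting error can be given and precision rests on 3 replicates a group.

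On the log2(TPM + 1) scale, the 13470 rows averaging 1 TPM or more were fitted in limma 3.58.1 (R 4.3.3; group as the only factor, variance trend), two-sided, with Benjamini-Hochberg adjustment over all tested rows and a threshold of 0.05. Fold changes are on that scale; means and SDs are of linear TPM. The code was tested on simulated data. GC content and length come from the longest GENCODE 29 transcript (34741 rows matched by name, 647 through synonyms, 85 not). No member shared all its values with another row. Full values are given for called genes, the 4 largest changes per complex, CYCS and paralogs; other values were picked after they were seen. Members and lists were chosen with earlier results of these data known. Alternatives numbered 21, of which 2 combining GC correction with another choice were added after seeing the data.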

Additional observations from a re-analysis of the deposited data

How the results depend on the processing

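COX8A was called in 10 and ATP5D in 11 of the 21 alternatives, and both were lower in all of them (limma adjusted p 0.0126 to 0.127 and 0.0166 to 0.193). Members called lower numbered 0 with no filter, no variance trend, the replicate block, an adjusted p under 0.01 or the GC correction with the block, 5 for rows of at least 5 TPM, where ATP5S, ATP5G1 and ATP5G2 joined, and 6 with median centring, where ATP5B joined as well. ATP5S also passed with quantile normalization and with both GC fits that had no block. Members called higher were 0 throughout. Rows of the other lists called lower numbered 0 with no filter, no variance trend, the block, an adjusted p under 0.01, the GC correction with the block and the GC correction without DMSO replicate 3, 2 with the GC correction, and 3 with median centring or rows of at least 5 TPM. Leaving out 1 library at a time gave 0 to 1 members and 0 to 0 rows of other lists called lower, and 14 to 55 higher and 4 to 30 lower calls over all rows.

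Calls over all rows were 66 higher and 32 lower with no filter, 245 and 183 for rows of at least 5 TPM, 124 and 237 with median centring, 51 and 32 with no variance trend, 14 and 3 with the block, 16 and 6 at an adjusted p under 0.01, 16 and 4 with the GC correction and the block, and 66 and 34 with the GC correction without DMSO replicate 3. Fewer tested rows change the adjustment by construction, and fewer libraries change the estimates and standard errors that enter it. The cause of the other shifts was not tested. Median centring moved the median of all rows by -0.04 and gave medians of -0.0851 for all members, -0.1213 for complex III, -0.0895 for complex IV and -0.0606 for the ATP synthase. Complex III was at -0.1109 with quantile normalization, and the ATP synthase at -0.0558 with either GC fit of all libraries and -0.0451 without DMSO replicate 3. Over single libraries left out, those medians ran from -0.0701 to -0.0252 for all members, -0.1004 to -0.0708 for complex III, -0.0789 to -0.0371 for complex IV and -0.0352 to -0.0104 for the ATP synthase. Whether the replicate numbers pair the samples is unknown. Deviations of same-numbered libraries had r = -0.14, -0.01 and -0.03, and those of differently numbered libraries ran from -0.09 to 0.14. Such correlations cannot show how the replicates were set up.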

Other observations

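Ratios between subunits of the same part of the ATP synthase, chosen after the values were seen and not tested, add to the gene values because library scaling cancels in them. ATP5B over ATP5A1 was 3.70, 3.74 and 3.69 with CBR-470-1 against 3.90, 3.85 and 4.21 with DMSO, so the beta to alpha ratio lay lower in every treated library. ATP5D over ATP5E was 1.91, 1.79 and 1.95 with CBR-470-1 against 2.41, 2.40 and 3.10 with DMSO. The GC trend does not cancel in these ratios, and its part in them was not tested. With the GC and length trend removed, ATP5B stood at -0.10 and ATP5A1 at -0.07, against -0.14 and -0.04 before. ATP5D stood at -0.33 and ATP5E at -0.04, against -0.45 and 0.03 before.

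Processed pseudogenes of these genes, whose reads can be hard to place, took little of the signal. The 92 pseudogene rows held from 0.0853% to 0.135% of the TPM of genes and pseudogenes together, 56 were listed at 0 in all libraries, and 4 averaged at least 1 TPM. The highest, COX5BP6, read 6.78, 7.58 and 2.23 TPM with CBR-470-1 against 5.50, 4.16 and 4.87 TPM with DMSO. Adding each gene's pseudogene rows to it changed neither the log2 fold change nor the SE of ATP5D (-0.45) and COX8A (-0.37). For these genes the addition therefore tested nothing. Among genes that did move, COX5B went from -0.1293 to -0.1204 and UQCRFS1 from -0.084 to -0.0768. ATP5E went from 0.0266 to 0.0133, and COX6C from 0.1406 to 0.1448. Of the DMSO libraries, replicate 3 was the highest for 17 of the 40 genes and the lowest for 20.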
